A study of Gallus gallus with 6 samples.

Results

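The regions described here are stretches of chromatin marked by methylated lysine 4 of histone H3 (H3K4) that lay inside the exons or untranslated regions (UTRs) of chicken genes, away from any transcription start. A region qualified when it lay on a numbered chromosome, was under 1000 bp wide, was centred more than 1000 bp from the closest transcription start, and had its centre in an exon or a UTR of the authors' annotation. Of 10677 regions with distinct coordinates in the 3 deposited tables, 301 (2.82%) met these limits. They made up 120 of the 4801 regions compared between embryonic stem cells (ESC) and primordial germ cells (PGC), 109 of 5840 between ESC and spermatogonial stem cells (SSC), and 192 of 4823 between PGC and SSC.

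Methylated H3K4 is laid down by methyltransferase complexes of the KMT2 and SETD1 family. Its trimethylated form peaks at active transcription starts, and its dimethylated form flanks those starts, reaches into the first part of transcribed genes and marks enhancers. Signal over an exon or a 3' UTR can belong to the edge of a promoter domain, to an enhancer or alternative start within the gene, or to the promoter of a neighbour. The tables do not separate these.

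ESC came from the stage X blastoderm of fertilized eggs and were kept in culture for 24 h before they were purified. PGC came from genital ridges, taken at 4.5 days of incubation in the protocol text, while the stage label reads 72 h (stage 27). SSC came from embryonic testes, at 18.5 days in the protocol text and 18 days in its label. Cells were purified by differential culture and no sort is mentioned, so other cells of the ridge or testis may have been carried along, and the number of embryos pooled is not given in the sources used here. No genotype or strain was used to define a group. SSC came from testes and so from males, while no sex of the ESC and PGC embryos was used here. Sex can thus not be told apart from population in the SSC comparisons. Chromatin immunoprecipitation was done with 1 antibody that, per the labels, binds the dimethylated as well as the trimethylated form, and the signal is named H3K4 methylation here. Each population had 1 immunoprecipitated (IP) library, of 19.15 to 26.03 megareads, and 1 input library, of 19.96 to 24.98 megareads. With 1 library per group there was no replicate check and no test between conditions: every difference below is a difference between libraries, and every 95% interval covers counting error only. No interval was widened for the number of regions compared, and many named regions were picked as the extremes of a table. Some of their intervals can thus leave out no difference by counting error alone.

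Of the 301 regions, 181 were centred in an exon, 109 in a 3' UTR and 11 in a 5' UTR. Of the exon regions, 32 lay wholly within their exon, against 81 of the 3' UTR regions and 1 of the 5' UTR regions. Among exon regions, 8 lay in exon 1, 85 in exons 2 to 4 and 88 further on, up to exon 47. The regions were 200 to 929 bp wide (median 231 bp) and 1007 to 259139 bp from the closest start (median 4185 bp). That start lay upstream of the region, so that the region was on the transcribed side, in 229 cases. In 189 cases the closest start belonged to the gene that the region overlapped. Of the 109 regions in 3' UTRs, 40 lay upstream of the start of another gene, 26 of them within 5 kb. The regions fell in 288 genes, and for 163 regions the files gave the gene a symbol. Among genes with a symbol none dominated: PCDH18 and SFPQ held 3 regions each and ARF6, GLA, NEK2, TCF21 and TRIP12 held 2 each.

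The counts behind each region were small, and are written below as IP over input reads. The median region held 9.5 to 15 reads in an IP library and 4 to 6 in an input library. Enrichment is the ratio of IP to input RPM (reads scaled to library size), computed by the authors with 1 read added to every count. A table lists a region only if its enrichment was above 1 in both populations, which holds down every ratio. The authors' call, which names the population in which a region was a peak, rests on the same reads as the enrichment, so a higher enrichment in the calling population is no independent evidence. The regions just inside the distance limit, both 1007 bp from a start, had log2 ratios of -2.44 in PGC against SSC (SFPQ) and 1.67 in ESC against PGC (GSC), and those just outside, at 999 and 997 bp, had -2.37 and 0.15 in ESC against SSC. The regions just inside the width limit, 929 bp (HSPA8) and 809 bp (ARF6) wide, had 1.53 in ESC against PGC and -1.55 in PGC against SSC, and those just outside, 1206 and 2026 bp wide, had 3.00 and 1.73 in ESC against PGC.

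Regions were matched between tables by identical coordinates. An exon 3 site on chromosome 8 that starts at 20076517 or 20076539 was listed in all 3 with differing coordinates and counts as separate regions. Of the 301 regions, 181 stood in 1 table, 0 in all 3 and 120 in 2 tables. For the 120, all 3 populations could be set side by side. The 22 of these called in ESC had a median enrichment of 4.31 in ESC, 1.48 in PGC and 2.27 in SSC. The 48 called in PGC had medians of 1.34 in ESC, 3.13 in PGC and 1.58 in SSC, and the 51 called in SSC had 1.44, 1.34 and 3.92. The region in TSC22D1 was called in ESC and in SSC and counts under both. The calling population had the highest of the 3 values in 45 of 48 PGC-called and 50 of 51 SSC-called regions, but in 16 of 22 ESC-called regions, and the other 6 of those were higher in SSC. Those 6 rested on SSC inputs of 0 to 3 reads. Each had fewer IP reads in SSC than in ESC, also when scaled to library size.

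**Figure D1:**
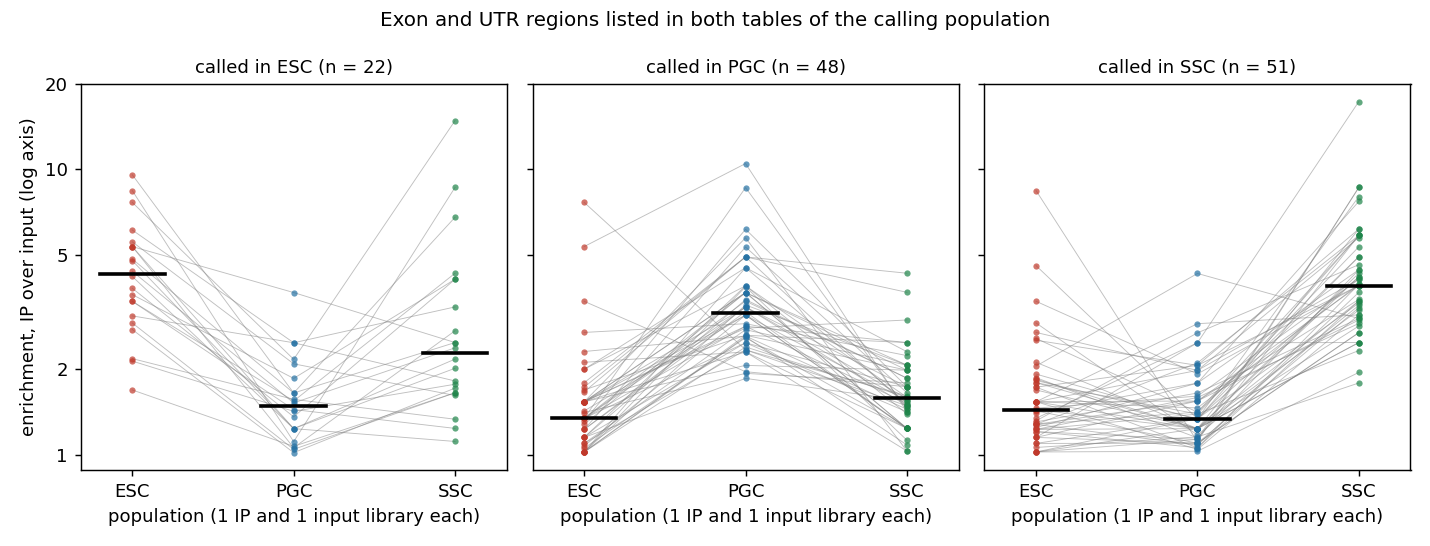
Enrichment (IP over input, log axis) in ESC, PGC and SSC of the regions listed in 2 tables, by the population that called them. The region in TSC22D1 is drawn under ESC and SSC, though it is not listed in PGC against SSC. Each grey line is 1 region, points are its values, and black bars are medians. Medians of the calling population are 4.31 for ESC, 3.13 for PGC and 3.92 for SSC. Some ESC-called regions have a higher ratio in SSC, on SSC inputs of 0 to 3 reads and with fewer IP reads there.

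ESC against PGC asked how H3K4 methylation over gene bodies differs between the earliest embryonic cells and germ cells that have reached the gonad. Among the regions higher in ESC were those in the cyclin gene CCND1, the RNA-binding protein gene IGF2BP3, the chaperone gene HSPA8 and the patterning genes EOMES and GSC. The regions higher in PGC were more numerous and had fewer reads, and the strongest lay in genes without a symbol. Of the 120 regions, 30 were called in ESC and 90 in PGC. Over all 4801 regions compared, 2758 were called only in ESC, 2027 only in PGC and 16 in both. At least 2-fold higher enrichment in ESC was found for 23 regions (over all regions of the table, 48.4% were), and in PGC for 56 (over all regions, 23.5%). The median log2 ratio of ESC over PGC was -0.88, beside 0.90 over all regions, -0.80 for intronic and -0.60 for intergenic regions with the same limits. Within the calls, 21 of 30 ESC-called regions were 2-fold higher in ESC (83.5% of all ESC-called regions) and 0 in PGC (0.399%), and 56 of 90 PGC-called ones were higher in PGC (55%) and 2 in ESC (0.888%). Centring the table on its median turned the split of 23 and 56 into 7 and 83. Both a 2-fold difference and a counting interval that left out no difference were found for 7 regions higher in ESC (all regions, 23.7%) and 6 higher in PGC (all regions, 2.1%), beside 41.1% of all ESC-called and 4.98% of all PGC-called regions.

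The largest difference in ESC's favour was in TSC22D1, a leucine zipper transcriptional regulator induced by TGF-beta. The region (chromosome 1, 166719440 to 166720039, in galGal4 as are all positions here) covers exon 2, 75826 bp downstream of the closest start. It held 65 IP over 5 input reads in ESC, 8 over 9 in PGC, and 27 over 3 in SSC. ESC and SSC were both high, at enrichments of 8.43 and 8.66, and PGC was near 1 at 1.11. The log2 ratio was 2.92 for ESC over PGC (95% counting interval 1.15 to 4.70) and -0.04 for ESC over SSC (-1.97 to 1.90).

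In CCND1, which encodes cyclin D1, the partner of the kinases that drive cells out of G1, the region over exon 2 (chromosome 5, 16829349 to 16829984) held 69 IP over 9 input reads in ESC, 14 over 14 in PGC, and 12 over 7 in SSC. ESC stood alone here, at an enrichment of 5.37 against 1.23 and 2.01. The log2 ratio was 2.12 over PGC (0.71 to 3.53) and 1.42 over SSC (-0.17 to 3.01). A second ESC-called region lay 1247 bp away and 137 bp from a start. NEK2, a kinase that separates centrosomes at mitosis, held a pair of regions 85 bp apart. The one over exon 2 (chromosome 3, 21505146 to 21505946), listed only against SSC, had 100 IP over 12 input reads in ESC and 17 over 11 in SSC, with a log2 ratio of 1.68 (0.34 to 3.03). The one over exon 3 (21506031 to 21506354) had 33 over 11 reads in ESC, 18 over 14 in PGC, and 13 over 12 in SSC. Its log2 ratios of 0.47 over PGC (-0.89 to 1.84) and 0.71 over SSC (-0.74 to 2.15) did not leave the counting error. CDKN1B encodes p27, an inhibitor of the cyclin-dependent kinases. Its 3' UTR region held 39 over 9 reads in ESC, 7 over 3 in PGC, and 21 over 14 in SSC. This amounted to a log2 ratio of 0.31 over PGC (-1.69 to 2.31) and 0.76 over SSC (-0.62 to 2.13), so neither difference exceeded counting error. The centriole assembly gene SASS6 and the cyclin gene CCNA2 were picked out after their values had been seen. The exon 2 region of SASS6 held 33 over 8 reads in ESC, 10 over 12 in PGC and 11 over 8 in SSC, a log2 ratio of 1.47 over PGC (-0.10 to 3.04), and the exon 4 region of CCNA2 held 30 over 2 reads in ESC and 7 over 1 in SSC, a ratio of 0.68 (-2.13 to 3.49).

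IGF2BP3 encodes an RNA-binding protein of embryonic tissues that stabilises target messages. Its exon 2 region (chromosome 2, 31392039 to 31392820) held 79 IP over 10 input reads in ESC, 26 over 15 in PGC, and 29 over 22 in SSC. ESC was highest, and the log2 ratio left counting error in both comparisons, at 1.42 over PGC (0.15 to 2.69) and 1.79 over SSC (0.59 to 2.99). HSPA8, the constitutive HSP70 chaperone, had a 5' UTR region (chromosome 24, 3069804 to 3070733) with 85 over 14 reads in ESC, 15 over 12 in PGC, and 22 over 11 in SSC. Its log2 ratio was 1.53 over PGC (0.21 to 2.85) and 0.89 over SSC (-0.39 to 2.17). The 5' UTR region of DNAJC10, a reductase of the endoplasmic reticulum that helps remove misfolded proteins, held 20 over 2 reads in ESC, 5 over 6 in PGC, and 10 over 4 in SSC, and its ratio of 2.34 over PGC just failed to leave counting error (-0.01 to 4.69). The 5' UTR region of C6orf62 held 42 over 11 reads in ESC, 13 over 16 in PGC, and 17 over 12 in SSC, with 1.43 over PGC (0.06 to 2.81) and 0.68 over SSC (-0.70 to 2.06).

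The early patterning genes were represented by EOMES and GSC, out of 39 such regulators looked for. EOMES is a T-box factor of the primitive streak and GSC a homeobox factor of the organizer. The 3' UTR region of EOMES (chromosome 2, 39179940 to 39180168) held 26 IP over 5 input reads in ESC, 6 over 5 in PGC, and 4 over 4 in SSC. That of GSC (chromosome 5, 44981823 to 44982174), listed only against PGC, held 40 over 7 in ESC and 7 over 7 in PGC. Both were more than 2-fold higher in ESC, by 1.26 (-0.77 to 3.29) for EOMES and 1.67 (-0.12 to 3.46) for GSC over PGC and 1.48 (-0.72 to 3.68) for EOMES over SSC. None of these intervals left out no difference. Both regions were called only in ESC. Of all those with such a call, 83.5% reached a 2-fold excess in ESC against PGC, and 59% did against SSC. Whatever the call, the shares were 48.4% and 35.1%. With 2 matches, the patterning list is too short to set apart from these shares. A region in the 3' UTR of a gene without a symbol (chromosome 1, 75368262 to 75368585), for which the deposited annotation lists sequence-specific DNA binding, held 24 over 3 reads in ESC, 13 over 13 in PGC, and 8 over 9 in SSC. It was the 1 region in a 3' UTR whose ratio left counting error in both ESC comparisons, at 1.957 over PGC (0.10 to 3.82) and 2.11 over SSC (0.10 to 4.11). On IP reads alone the ratio over PGC was 0.47 and that over SSC was 1.03.

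Single regions of other genes were as strong but rested on few input reads. In TMC7, a transmembrane channel-like gene, the exon 4 region held 40 IP over 2 input reads in ESC and 6 over 5 in PGC. The log2 ratio was 2.86 (0.55 to 5.17). In MAU2, whose product loads cohesin onto chromosomes, the 3' UTR region held 24 over 1 reads in ESC, 3 over 2 in PGC, and 5 over 2 in SSC. Its enrichment of 9.58 in ESC was the highest among ESC-called regions of 2 tables, yet the ratios of 2.54 (-0.46 to 5.54) and 1.95 (-0.93 to 4.84) did not leave counting error. A 3' UTR region on chromosome 23 (5074064 to 5074304), called in PGC, went against its call. It held 19 over 1 reads in ESC, 16 over 8 in PGC and 12 over 9 in SSC, a log2 ratio of 1.72 for ESC over PGC (-0.68 to 4.12) that turned to -0.13 without the inputs.

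Among PGC-called regions in this comparison, the strongest lay in genes for which the files gave no symbol. A region over exon 2 of such a gene (chromosome 17, 3065937 to 3066217) held 19 IP over 2 input reads in PGC and 8 over 5 in ESC, a log2 ratio of -2.84 (-5.14 to -0.54). A 3' UTR region on chromosome 4 (69143650 to 69143874) was the PGC region best set apart from both other populations. It held 20 over 2 reads in PGC, 13 over 7 in ESC, and 6 over 5 in SSC. Enrichment was 8.64 in PGC, 1.34 in ESC and 1.44 in SSC, and the ratio left counting error in both comparisons, at -2.69 for ESC over PGC (-4.84 to -0.54) and 2.58 for PGC over SSC (0.23 to 4.93). A further 3' UTR region (chromosome 5, 17709490 to 17709691) held 17 over 2 reads in PGC and 10 over 6 in ESC, a ratio of -2.62 (-4.85 to -0.39). In each of these the PGC input was low, and IP reads alone gave smaller ratios of -1.51, -0.95 and -1.07. In Rchy1, a ubiquitin ligase gene, the exon 6 region held 14 over 2 reads in PGC, 11 over 6 in ESC and 6 over 4 in SSC, with -2.23 (-4.47 to 0.01) for ESC over PGC. In FERMT2, which encodes the integrin activator kindlin-2, the exon 3 region held 18 over 5 in PGC, 11 over 7 in ESC and 8 over 6 in SSC, with -1.76 (-3.61 to 0.08). Neither of these 2 ratios left counting error.

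ESC against SSC set the earliest embryonic cells beside germ cells of the embryonic testis. Among the regions higher in SSC were those in the protocadherin gene PCDH18 and the transcription factor genes ZNF423 and EBF1, while NEK2 and IGF2BP3 were higher in ESC. Of the 109 regions, 29 were called in ESC, 77 in SSC and 3 in both. Over all 5840 regions compared, 3205 were called only in ESC, 2238 only in SSC and 397 in both. At least 2-fold higher enrichment in ESC was found for 10 regions (all regions, 35.1%) and in SSC for 56 (all regions, 26.3%). The median log2 ratio of ESC over SSC was -1.01, beside 0.31 over all regions, -1.01 for intronic and -0.47 for intergenic regions with the same limits. Within the calls, 10 of 29 ESC-called regions were 2-fold higher in ESC (59% of all ESC-called regions) and 0 in SSC (1.72%), and 55 of 77 SSC-called ones were higher in SSC (65.2%) and 0 in ESC (1.07%). The split of 10 and 56 became 8 and 70 after centring on the median of the table, and 15 and 42 on IP reads alone. With the counting interval as a second condition, 3 were higher in ESC (all regions, 12%) and 9 in SSC (all regions, 4.83%), beside 18.9% of all ESC-called and 12.3% of all SSC-called regions.

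PCDH18, a protocadherin whose large first exon encodes its extracellular repeats, held 3 SSC-called regions within its gene body. The region over exon 3 (chromosome 4, 28124728 to 28125110) held 20 IP over 2 input reads in SSC, 19 over 14 in ESC, and 10 over 11 in PGC. Enrichment was 8.66 in SSC and near 1 in both others, at 1.02 and 1.13, and the log2 ratio was -3.08 for ESC over SSC (-5.08 to -1.09) and -2.94 for PGC over SSC (-5.04 to -0.83). On IP reads alone these ratios shrank to -0.51 and -1.01, so both, and the first most, depended on the inputs. The longest region, within exon 1 (28126378 to 28127017), was listed only against PGC and held 41 over 7 reads in SSC and 21 over 24 in PGC, a ratio of -2.58 (-3.95 to -1.21), or -1.01 on IP reads alone. The last, also within exon 1 (28126088 to 28126310), held 13 over 3 in SSC, 11 over 4 in ESC, and 6 over 6 in PGC. Its ratios of -1.23 (-3.43 to 0.97) and -1.81 (-4.01 to 0.39) pointed the same way within counting error. A further SSC-called region between them, 124 bp from the exon 3 region and outside the rule, had 34 IP over 5 input reads. Of the other members in cadherin genes, PCDH19 in exon 1 had 17 over 5 reads in SSC and 15 over 4 in ESC, a ratio of -0.60 (-2.57 to 1.37), and PCDHGC5 in exon 1 was called in PGC, with 14 over 3 reads there and 8 over 5 in SSC, a ratio of 1.32 (-0.86 to 3.50).

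ZNF423, a zinc finger gene known in mouse for commitment of fat cell precursors, had a region within exon 4 (chromosome 11, 6290591 to 6291039). It held 24 IP over 3 input reads in SSC, 12 over 7 in ESC, and 12 over 8 in PGC. SSC was the highest by far at an enrichment of 7.73, against 1.25 and 1.78, with ratios of -2.63 (-4.62 to -0.65) for ESC over SSC and -2.12 (-4.07 to -0.16) for PGC over SSC. EBF1, a factor of B cell and stromal development, had a region over exon 3 (chromosome 13, 10005943 to 10006286) with 19 over 3 reads in SSC, 13 over 5 in ESC, and 7 over 7 in PGC. Its ratio was -1.79 (-3.86 to 0.29) for ESC over SSC and -2.32 (-4.42 to -0.23) for PGC over SSC. Beside it lay other SSC-called regions, 1 of which had 54 over 16 reads at a gap of 1196 bp.

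The translation initiation factor gene EIF4G3 had a region over exon 16 with 15 IP over 3 input reads in SSC, 7 over 5 in ESC and 12 over 11 in PGC, with ratios of -2.27 (-4.47 to -0.08) for ESC over SSC and -1.89 (-3.83 to 0.06) for PGC over SSC. EIF5A2, another translation factor gene, had a 3' UTR region with 12 over 5 reads in SSC, 8 over 5 in ESC and 7 over 8 in PGC. Its ratios of -1.22 (-3.26 to 0.82) and -1.29 (-3.25 to 0.67) were over 2-fold and within counting error. PNRC1, a nuclear receptor coregulator, had a 3' UTR region (chromosome 3, 75237101 to 75237619) with 52 over 19 reads in SSC, 25 over 13 in ESC, and 15 over 17 in PGC. Ratios were -1.20 (-2.40 to -0.01) for ESC over SSC and -1.58 (-2.80 to -0.36) for PGC over SSC, and IP reads alone gave -1.47 and -1.81, so the difference was as large without the inputs. The 3' UTR region of C1orf123 held 32 over 10 reads in SSC, 24 over 14 in ESC, and 13 over 15 in PGC. It too was higher in SSC than in either, by -1.54 (-2.89 to -0.19) for ESC over SSC and -1.78 (-3.21 to -0.35) for PGC over SSC. The region with the highest SSC enrichment of this comparison, 17.3, lay in a 3' UTR on chromosome 7 (21633326 to 21633563) and had 13 over 0 reads in SSC, 6 over 3 in ESC, and 3 over 1 in PGC. With 3 counts in place of that input, and 1 read added, SSC was at least 3.23-fold higher than ESC before counting error in the other reads, while the interval of the log2 ratio of -3.69 ended at -0.27.

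PGC against SSC followed the germ line from the genital ridge to the embryonic testis. The regions higher in SSC again held PCDH18, together with the gonadal factor gene LHX9, the splicing factor gene SFPQ and the zinc transporter gene SLC30A4. The regions at least 2-fold higher in PGC were mostly centred in exons, at 34 against 9 in 3' UTRs, and included those of RELL2 and CLCN1. Of the 192 regions, 105 were called in PGC and 87 in SSC. Over all 4823 regions compared, 2279 were called only in PGC, 2527 only in SSC and 17 in both. At least 2-fold higher enrichment in PGC was found for 43 (all regions, 21.2%) and in SSC for 66 (all regions, 37.8%). The median log2 ratio of PGC over SSC was 0.07, beside -0.42 over all regions, -0.17 for intronic and -0.00 for intergenic regions with the same limits. Within the calls, 43 of 105 PGC-called regions were 2-fold higher in PGC (44.7% of all PGC-called regions) and 1 in SSC (1.14%), and 65 of 87 SSC-called ones were higher in SSC (71%) and 0 in PGC (0.158%). The split also depended on scaling: that of 43 and 66 became 72 and 45 after centring and 62 and 28 on IP reads alone. With the counting interval as a second condition, 5 were higher in PGC (all regions, 1.8%) and 21 in SSC (all regions, 9.58%), beside 3.82% of all PGC-called and 18.2% of all SSC-called regions.

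**Figure D2:**
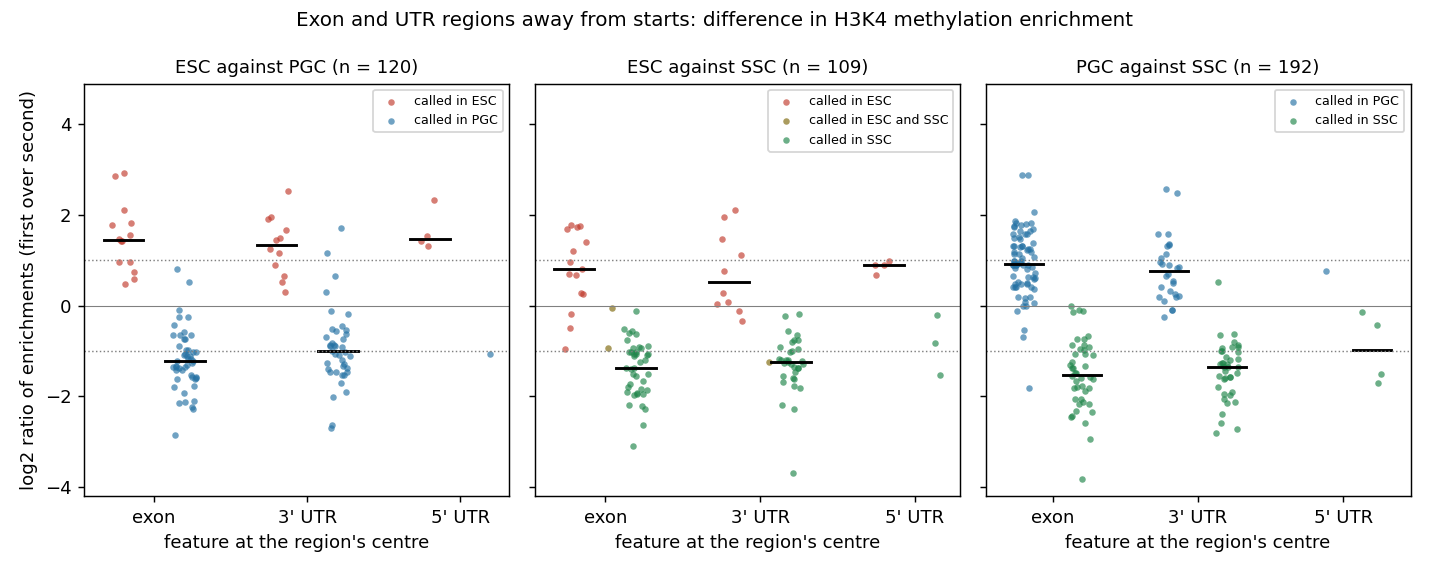
Log2 ratio of enrichments (first population over second) of each region in the 3 comparisons, by the feature at its centre and the population of the call; black bars are medians of 4 or more regions, dotted lines mark 2-fold. Medians of exon and 3' UTR regions are -1.22 and -1.01 for PGC-called regions in ESC against PGC, and 0.81 and 0.52 for ESC-called regions in ESC against SSC.

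Medians by feature were as follows. PGC-called exon and 3' UTR regions had medians of -1.22 and -1.01 against ESC and 0.93 and 0.77 against SSC, and SSC-called ones had -1.37 and -1.23 against ESC and -1.52 and -1.35 against PGC. ESC-called ones had 1.45 and 1.35 against PGC and 0.81 and 0.52 against SSC. In each of these pairs the exon median was the farther from 0, and no test of the difference was made. PGC against SSC listed 76 exon and 28 3' UTR regions called in PGC, and 44 and 39 called in SSC. In the table with ESC the PGC-called numbers were closer, at 49 exon and 40 3' UTR regions. Those called only in SSC were 41 and 33 in the table with ESC, and so no closer than against PGC. The 5' UTR regions were few, at 5, 7 and 5 in the 3 tables, and 4 of them in each ESC comparison were called in ESC, those of C6orf62, DNAJC10, HSPA8 and VRK1, with a median ratio of 1.48 over PGC and 0.89 over SSC. The 3 called in SSC against ESC had a median of -0.82.

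LHX9, a LIM homeobox gene needed for gonad formation in mouse, had the largest SSC difference of this comparison. Its exon 3 region (chromosome 8, 2276204 to 2276436) held 16 IP over 0 input reads in SSC and 5 over 4 in PGC. The log2 ratio was -3.83 (-7.20 to -0.45). With 3 counts in place of the empty input, and 1 read added as elsewhere, SSC was at least 3.55-fold higher before counting error in the other reads. An SSC-called region 650 bp away and 1850 bp from the start held 55 over 6 reads. The other gonadal factor, TCF21, a basic helix-loop-helix gene of mesenchyme, had a pair of 3' UTR regions called in SSC. One (chromosome 3, 55549714 to 55550069) held 18 over 5 reads in SSC, 22 over 6 in ESC, and 19 over 11 in PGC, so the IP reads were alike in all 3 and the ratios of -0.64 (-2.44 to 1.16) for ESC over SSC and -0.93 (-2.61 to 0.75) for PGC over SSC stayed under 2-fold. The other (55546922 to 55547122) held 11 over 4 in SSC and 5 over 5 in PGC, with -1.27 (-3.49 to 0.95).

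These genes are also markers of the somatic cells that surround germ cells in the gonad, and no sort of the SSC preparation is mentioned. Of 31 gonadal somatic markers, LHX9 and TCF21 held regions. COL6A3, a chain of collagen VI and 1 of 35 fibroblast and matrix markers, had an exon 7 region with 14 IP over 3 input reads in SSC and 8 over 9 in PGC, a ratio of -2.06 (-4.12 to -0.01). EBF1 was the only one of 24 blood and endothelial markers with a region. All of these were called in SSC, and no other marker on the 3 lists matched a region. In PGC against SSC, 87 of the 192 regions were called in SSC, and 2527 of all 4823 were called only there. These markers are too few to set apart from such shares. Lists were matched by symbol, and 163 of the 301 regions had one, so a marker gene without a symbol would be missed. The part that other testis cells have in the SSC signal was not tested. None of 45 germ cell, piRNA and meiosis genes and none of 29 pluripotency genes matched a region with a symbol. The names of the populations could thus not be checked on these regions.

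SFPQ, which encodes an RNA-binding splicing factor of paraspeckles, held 3 regions in a row over exons 2, 3 and 4, all called in SSC and listed only against PGC. The first (chromosome 23, 4344788 to 4345183) held 26 IP over 4 input reads in SSC and 6 over 6 in PGC, with a log2 ratio of -2.44 (-4.48 to -0.39). The following ones, 80 and 64 bp further on, held 15 over 6 reads in SSC against 9 over 7 in PGC, and 21 over 10 against 11 over 9. Their ratios were -0.87 (-2.73 to 0.98) and -0.74 (-2.34 to 0.86), both within counting error. The 3 intervals overlap, and a change with distance from the start was not tested. CHD2, a chromatin remodelling gene, was the only one of 83 listed chromatin enzyme genes that matched a region by symbol. The chromatin genes ATRX (exon 9, called in PGC) and NSD1 (exon 4, called in SSC) held regions but were not on that list. ATRX went against its call, with 14 over 7 reads in PGC and 12 over 2 in ESC, enrichments of 2.31 and 3.32. NSD1 held 14 over 3 reads in SSC and 7 over 4 in ESC, enrichments of 4.64 and 1.23. The 5' UTR region of CHD2 (chromosome 10, 14113821 to 14114421) held 53 over 19 reads in SSC, 33 over 8 in ESC, and 18 over 19 in PGC. PGC was low, at an enrichment of 1.17 against 3.34 and 2.90, and the ratio was -1.51 (-2.68 to -0.34) for PGC over SSC and -0.20 (-1.50 to 1.09) for ESC over SSC. In ARF6, a small GTPase of membrane traffic, the 3' UTR held a region with 49 over 12 reads in SSC and 24 over 18 in PGC, a ratio of -1.55 (-2.78 to -0.32). An overlapping region of the same UTR, listed for ESC against PGC, held 20 over 5 reads in ESC and 6 over 5 in PGC.

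Of the 4 solute carrier genes with regions in PGC against SSC, 2 were at least 2-fold higher in SSC, beside 37.8% of all regions, and 0 in PGC, beside 21.2%. SLC30A4, which carries zinc, had a 3' UTR region with 15 IP over 2 input reads in SSC and 8 over 10 in PGC, a ratio of -2.71 (-4.89 to -0.52). SLC35A1, which carries CMP-sialic acid into the Golgi, had an exon 2 region with 11 over 1 against 7 over 5, a ratio of -2.17 (-4.82 to 0.47). On IP reads alone these were -0.91 and -0.66. The regions in SLC11A1 and SLC38A4 were called in PGC and had ratios of 0.89 (-1.21 to 2.99) and -0.11 (-2.51 to 2.29). Of 3 ion channel genes, 2 were at least 2-fold higher in PGC and 1 in SSC. Lists of 3 and 4 genes are too short to set apart from these shares. CLCN1, the chloride channel of skeletal muscle, had an exon 16 region with 18 over 4 reads in PGC and 8 over 9 in SSC, a ratio of 2.08 (0.15 to 4.0). TRPC1, a cation channel, had an exon 12 region with 14 over 5 against 6 over 6, a ratio of 1.32 (-0.72 to 3.36). The calcium channel gene CACNA1D was called in PGC with 11 over 5 reads, while SSC held 6 over 0. Its log2 ratio of -1.81 (-5.15 to 1.53) went against the call, with an empty SSC input, and became 0.70 on IP reads alone.

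The largest PGC difference was in RELL2, a gene related to the tumour necrosis factor receptor RELT. Its exon 5 region (chromosome 13, 1297464 to 1297664) held 16 IP over 1 input reads in PGC, 7 over 6 in SSC, and 6 over 0 in ESC. Enrichment was 10.5 in PGC, 1.41 in SSC and 5.37 in ESC, the first on 1 input read and the last on an empty input. The log2 ratio was 2.89 for PGC over SSC (0.32 to 5.46) and -0.97 for ESC over PGC (-4.66 to 2.72). A region over exon 32 of a gene without a symbol (chromosome 21, 2716664 to 2716963) held 18 over 2 reads in PGC and 5 over 6 in SSC, a ratio of 2.88 (0.52 to 5.24). One over exon 19 of another (chromosome 1, 104436031 to 104436393) held 21 over 6 in PGC, 9 over 10 in SSC, and 19 over 14 in ESC. Its enrichment was higher in PGC than in either, by 1.79 (0.05 to 3.53) over SSC, with -1.92 (-3.49 to -0.36) for ESC over PGC. Between PGC and ESC the IP reads were close, at 21 and 19 before scaling, and the inputs differed more, at 6 and 14. The secretin receptor gene SCTR had an exon 11 region with 20 over 8 reads in PGC and 8 over 10 in SSC, a ratio of 1.51 (-0.19 to 3.21). The ubiquitin ligase gene RNF8, which acts at DNA breaks, had an exon 3 region with 19 over 6 against 10 over 8, a ratio of 1.22 (-0.55 to 3.00).

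**Figure D3:**
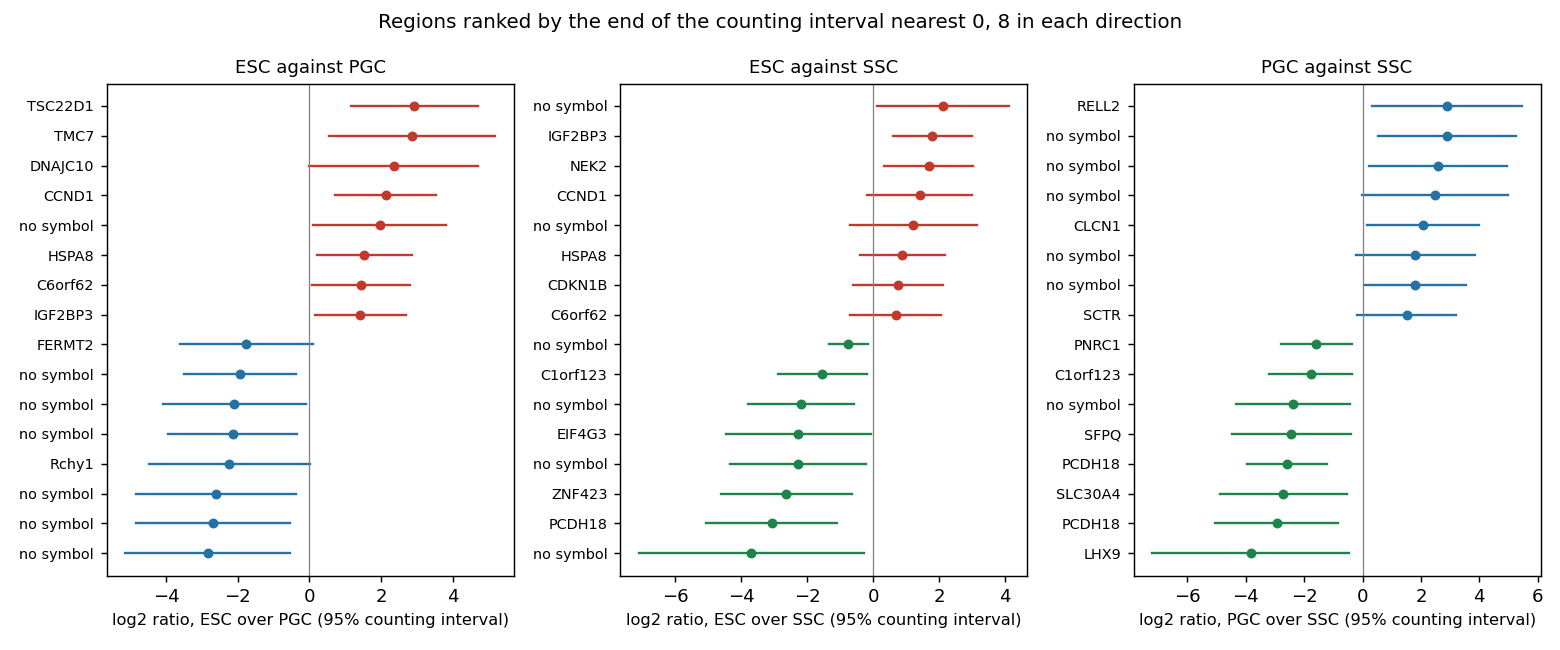
Log2 ratio of enrichments with its 95% counting interval for the 8 regions in each direction, called in the higher population, whose interval end nearest 0 lies farthest out; labels give the gene that the region overlaps. The TSC22D1 interval runs from 1.15 to 4.70 in ESC against PGC, that of the PCDH18 region in exon 3 from -5.08 to -1.09 in ESC against SSC, and that of LHX9 from -7.20 to -0.45 in PGC against SSC.

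Where the regions lay differed by population. Of those called in ESC, 50.0% (against PGC) and 59.4% (against SSC) were between 1000 and 2000 bp from a start, with median distances of 2153 and 1809 bp. Of those called in SSC, 23.8% (against ESC) and 25.3% (against PGC) were that close, with medians of 3106 and 3370 bp. Of those called in PGC, 4.44% (against ESC) and 5.71% (against SSC) were, with medians of 6022 and 6983 bp, and 25.6% and 22.9% lay over 20 kb away. Intronic regions with the same limits and called in 1 population only followed the same order. Their medians were 2103 and 2237 bp for ESC, 5879 and 7089 bp for SSC, and 14860 and 15607 bp for PGC. Left out of these were intronic regions called in both populations, such as 33 in ESC against SSC (median 1480 bp). The exon and UTR medians include the 3 called in both ESC and SSC. Only 1 of 30 and 3 of 32 ESC-called regions lay upstream of the closest start, against 31 of 90 and 32 of 105 for PGC and 18 of 80 and 18 of 87 for SSC. These shares describe 1 IP library each.

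**Figure D4:**
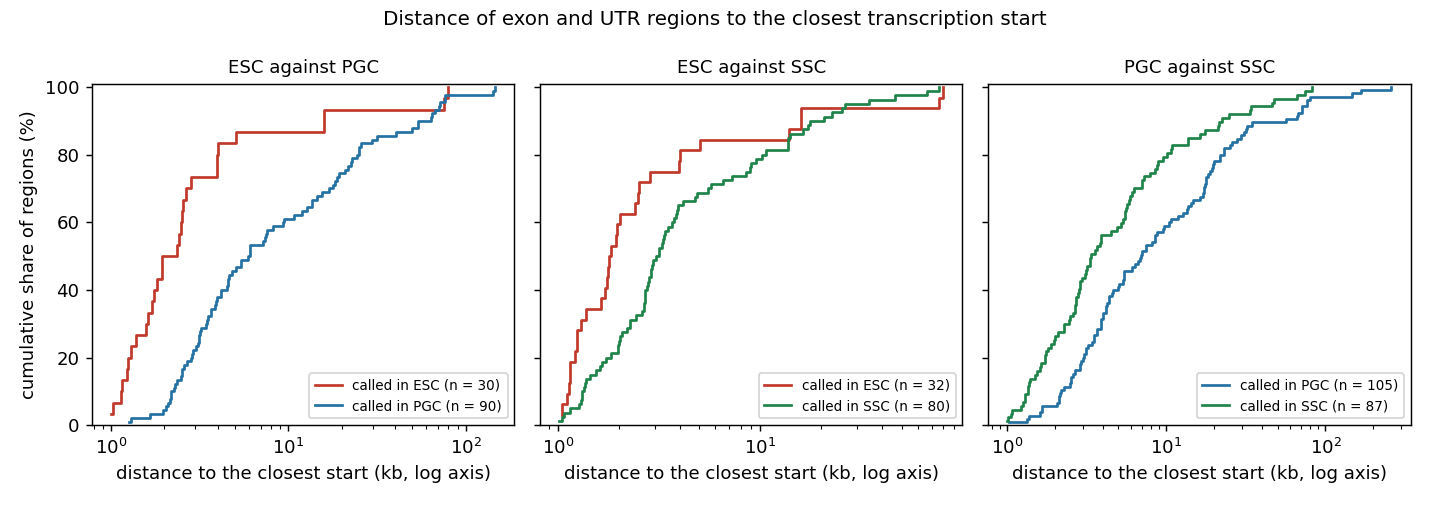
Cumulative share of exon and UTR regions by distance to the closest transcription start (kb, log axis), for the population of the call in each comparison. Median distances are 2153 and 1809 bp for ESC, 3106 and 3370 bp for SSC, and 6022 and 6983 bp for PGC.

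The same order was found in how often another call lay close by. A further region called in the same population lay within 2 kb of 12 of 30 ESC-called regions in the table with PGC (40.0%, exact 95% interval 22.7 to 59.4) and of 16 of 32 in the table with SSC (50.0%, 31.9 to 68.1). In 8 and 7 of these cases that neighbour was itself within 1 kb of a start, as at CCND1, IGF2BP3 and SASS6. For SSC the share was 17 of 80 (21.2%, 12.9 to 31.8) and 16 of 87 (18.4%, 10.9 to 28.1). For PGC it was 0 of 90, which allows a share of up to 4.02%, and 1 of 105 (0.952%, 0.0241 to 5.19), the region in SCTR. Intronic regions had shares of 42.2% and 54.4% for ESC, 15.9% and 13.5% for SSC, and 2.64% and 2.47% for PGC, each within the interval of the exon and UTR regions. Median enrichment in the calling population was 3.09 for PGC-called regions in both of their tables, 3.71 for SSC-called ones in both of theirs, and 3.88 and 4.22 for ESC-called ones. The median reads were 16 IP over 6 input for PGC, 15 over 4 for SSC, and 24 over 4.5 and 24 over 4 for ESC, so PGC had the lowest enrichment but not the fewest IP reads.

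**Figure D5:**
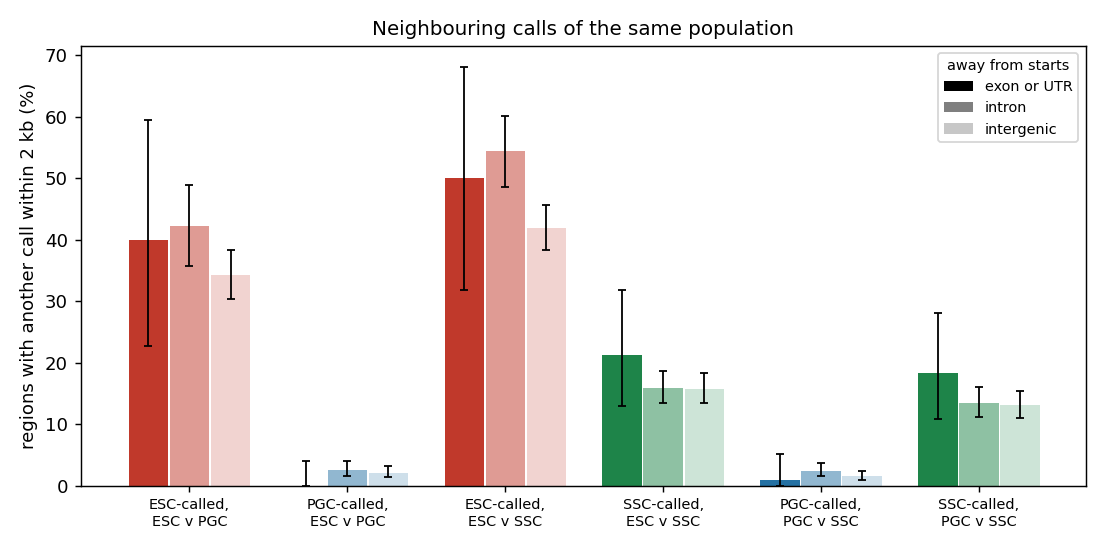
Share of regions away from starts that had another region called in the same population within 2 kb, for exon and UTR (solid), intronic (mid) and intergenic (pale) regions, by population and table; error bars are exact 95% binomial intervals. ESC-called exon and UTR regions reach 40.0% and 50.0%, SSC-called ones 21.2% and 18.4%, and PGC-called ones 0% and 0.952%.

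Exon and UTR regions made up 1.25% (exact 95% interval 0.845 to 1.78) and 1.03% (0.706 to 1.45) of the regions called in ESC with the same limits on chromosome and width, 3.48% (2.77 to 4.31) and 3.78% (3.04 to 4.65) of those called in SSC, and 4.55% (3.68 to 5.57) and 4.71% (3.87 to 5.68) of those called in PGC. Regions within 1000 bp of a start count in these totals, and their share differed widely. It was 65.1% and 66.3% of the regions called in ESC, 20.6% and 18.1% in SSC, and 4.10% and 3.37% in PGC. Whether the low share in PGC belongs to the cells or to the 1 IP library was not tested. The same limit holds for the distances and neighbours of PGC-called regions above. Among called regions more than 1000 bp from a start, the shares were 3.58% (2.43 to 5.07) and 3.06% (2.10 to 4.29) for ESC, 4.38% (3.49 to 5.43) and 4.62% for SSC, and 4.75% (3.83 to 5.80) and 4.88% (4.01 to 5.87) for PGC. The intervals of these shares away from starts all overlap, and each share is of 1 IP library.

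Tables that share a population share its libraries, so a region found in 2 tables is not a repeated measurement. By an overlap of at least 1 bp, 23 regions of ESC against PGC (19.2%) and 23 of ESC against SSC (21.1%) were the same. ESC against PGC and PGC against SSC shared 50 (41.7% and 26.04%), and ESC against SSC and PGC against SSC shared 51 (46.8% and 26.6%). Over the whole series, comparisons of 4801, 5840 and 4823 regions held 10677 distinct ones. The exon and UTR regions, at 120, 109 and 192, held 301. Overlap shares over all regions were not computed, so the shares above are not read as a trait of these regions. The regions fell in genes of 14 of 22 lists of pathways, cell types and gene families, with 29 regions in at least 1 list. Regions in genes without a symbol could not match a list. The 8 lists with no match were pluripotency factors, germ cell genes, the Wnt, Notch and FGF pathways, HOX genes, guidance receptors and microRNA genes. Of the lists not described above, the TGF-beta pathway held LTBP1 (exon 24, 11 IP over 3 input reads in SSC against 6 over 7 in PGC, a log2 ratio of -1.78 with interval -3.97 to 0.41). The motor gene list held KIF26B, a kinesin, at 0.66 (-1.52 to 2.84) in PGC against SSC, and MYOM1, a structural protein of muscle caught by its symbol, at 0.47 (-1.50 to 2.44). The ubiquitin and proteasome list also held PSMC3, higher in PGC than ESC (-1.62, -3.82 to 0.59), and FBXL18, called in SSC (-0.88 for ESC over SSC, -3.04 to 1.27).

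A single 3' UTR region held far more reads than any other without strong enrichment. It lay on chromosome 11 (754656 to 755041) and held 111 IP over 80 input reads in ESC, 129 over 138 in PGC, and 113 over 78 in SSC. Enrichment was 1.06, 1.15 and 1.78. The SSC excess of -0.75 (-1.34 to -0.17) over ESC and -0.63 (-1.17 to -0.09) over PGC left counting error but was under 2-fold, and on IP reads alone the second turned to 0.11.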

How the data were processed

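Chromatin immunoprecipitation sequencing libraries (1 IP and 1 input for each of 3 populations) were read from 3 deposited tables, 1 per pair of populations. Per the submitters' processing notes, CASAVA 1.8, FastQC, BWA, MACS2 and the build galGal4 were used; their settings are not given in the sources used here. Per the file headers, the authors deposited read counts per region for each library, RPM values (count plus 1, per megaread of the library), the ratio of IP to input RPM as fold enrichment, and the log2 of the ratio of 2 enrichments. Library totals of 19.15 to 26.03 megareads were derived from counts and RPM. Whether coordinates count from 0 or 1 is not stated.

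Repeats of a region were collapsed to 1. Enrichments and log2 ratios were recomputed with Python 3.11.15, numpy 2.4.6, pandas 2.3.3 and scipy 1.17.1 and lay within 6.94e-06 of the log2 values that the authors deposited. With 1 library per group no model was fitted: a region counted as higher at 2-fold or more, each ratio has a 95% delta-method interval on the 4 counts, and shares have exact Clopper-Pearson intervals, all for counting error only. The ratios and their delta-method intervals were tested on simulated Poisson counts, without the peak calls or the listing of regions. Where the input of the higher population held 0 reads, a floor of 3 counts, with 1 added as for every count, gave a lower bound. The 47 regions annotated as last exon fell outside the rule.

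Members, named regions and the 22 gene lists were chosen with earlier results of these data known. The rule took, per table, the 8 called regions in each direction with the interval farthest from 0, up to 2 list members per direction, the 3 with most IP reads per population and the 3 per feature with the largest ratio clear of 0. It also took the 10 most enriched regions of 2 tables and genes with 3 regions. Other regions named were picked after their values were seen: those of PCDH19, SASS6, CCNA2, VRK1, ARF6, TCF21 at the first site, NEK2 exon 3, SLC11A1, SLC38A4, KIF26B, MYOM1, FBXL18, ATRX, NSD1 and the second tables of regions named in 1. Gene names are those in the files. No reference sequence of the build was used. Alternatives were another pseudocount, centring, no inputs, other folds and filters, and a wider distance limit.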

Additional observations from a re-analysis of the deposited data

How the results depend on the processing

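No paired analysis was possible because each population had 1 IP and 1 input library. Counts below are regions higher in the first and second population, in the order ESC with PGC, ESC with SSC and PGC with SSC, which were 23 and 56, 10 and 56, and 43 and 66. With a pseudocount of 5, 13 were higher in ESC than PGC, 6 in ESC than SSC, 23 in PGC than SSC and 41 in SSC than PGC. Centring on the table's median left 7 higher in ESC than PGC and 72 in PGC than SSC, with medians of -1.78, -1.32 and 0.49 in place of -0.88, -1.01 and 0.07. Without inputs, 28 were higher in SSC than PGC, and the medians were -0.76 for ESC over SSC and 0.48 for PGC over SSC. With the counting interval as a second condition the counts were 7 and 6, 3 and 9, and 5 and 21, and at 4-fold they were 5 and 9, 1 and 8, and 5 and 19. Over 5000 bp from a start they were 5 and 29 of 54 regions and 3 and 18 of 30, with 28 of 99 higher in SSC than PGC and a median of 0.47 there. Fewer calls in these last 3 settings follow from stricter limits and fewer regions. For the rest the cause was not tested.

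The filters on IP reads and on distance leave a ratio unchanged, so their 82 and 41 values of named regions could not move. A floor for empty inputs changes only regions with such an input, so most of its values could not move either. Centring takes the table's median, 0.90, 0.31 or -0.42, from every ratio. That shift is smaller than any named region's interval reaches to either side, so its 91 values were also fixed in advance. Of 487 values of named regions under all the settings, those included, 480 stayed within the region's counting interval. Beyond it moved 4, and 3 of at least 2-fold changed sign and are counted apart. With 3 counts in place of its empty input, CACNA1D turned from -1.81 to 0.19. The others came from leaving out the inputs: the chromosome 23 region of ESC against PGC turned from 1.72 to -0.13 and CACNA1D of PGC against SSC from -1.81 to 0.70, while PCDH18 exon 3 moved to -0.51 for ESC over SSC, PCDH18 exon 1 to -1.01, MOSPD1 from -2.59 to -0.08 and the chromosome 11 region to 0.11 for PGC over SSC. IP reads alone were higher in the calling population for 29 of 30 and 90 of 90 regions called only in ESC or PGC, 29 of 29 and 77 of 77 in ESC or SSC, and 104 of 105 and 83 of 87 in PGC or SSC. The calls rest on these same IP reads, so these counts were largely fixed by the selection and are no independent check. At a median of 4 to 6 input reads per region, the inputs limit every ratio.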
